A study of Mus musculus with 11 samples.

Results

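The 6 genes described here, Ret, Gfra1, Zbtb16, Egr4, Bnc2 and Foxo1, are known for their roles in the spermatogonial stem cells of the mouse testis and its male germ line, and were followed in the fetal germ cells that precede those stem cells. They were taken by symbol, with every probe of theirs, from the 19057 named genes of the array, which gave 11 probes among the 45281 on it. RNA was measured on 11 Illumina BeadChip arrays. Germ cells had been sorted from mouse gonads as cells positive for green fluorescent protein (GFP) driven by Pou5f1, a pluripotency gene that fetal germ cells keep active. They came from E11.5 (labelled male/female), E13.5 males and E15.5 males, with 3 arrays each, and GFP-negative non-germ cells of E13.5 male gonads gave 2 further arrays. All groups carried the reporter and shared a hybrid background, (CBA/CaJ X C57BL/6J)F16+ crossed with Hsd:ICR(CD-1), and the labels name no deletion and no agent. The labels call the arrays of a group biological replicates without giving the number of embryos in each. The E11.5 germ cells differ from the later ones in stage and in sex mix, and the effects of these cannot be told apart.

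RET is a receptor tyrosine kinase that binds glial cell line-derived neurotrophic factor (GDNF) together with the membrane-anchored co-receptor GFRA1, and in the postnatal testis GDNF from Sertoli cells sustains the stem cells through this pair. ZBTB16 (also PLZF) is a zinc finger repressor needed for stem cell self-renewal, and FOXO1 is a forkhead transcription factor that phosphoinositide 3-kinase and AKT signalling holds out of the nucleus and that mouse spermatogonia need for stem cell maintenance. EGR4, an early growth response zinc finger factor, is needed for male fertility in the mouse, and BNC2, a basonuclin zinc finger protein, is needed in mouse fetal male germ cells for normal mitotic arrest.

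Windows around an annotated start are shown for the 3 detected genes with a RefSeq promoter sequence, because that of Bnc2 differs sharply in base composition from the others. Whether these starts are used in fetal germ cells was not tested, so a window, that of Bnc2 included, may not hold the promoter in use. Each is 300 bases long on GRCm38.p6, running 5′ to 3′ on the gene's strand over 250 bases before and 50 bases from 1 annotated start, with CpG dinucleotides in capitals. Egr4 lies at chr6:85513540-85513839 (minus strand), Bnc2 at chr4:84610148-84610447 (minus strand) and Foxo1 at chr3:52268087-52268386 (plus strand).
Egr4: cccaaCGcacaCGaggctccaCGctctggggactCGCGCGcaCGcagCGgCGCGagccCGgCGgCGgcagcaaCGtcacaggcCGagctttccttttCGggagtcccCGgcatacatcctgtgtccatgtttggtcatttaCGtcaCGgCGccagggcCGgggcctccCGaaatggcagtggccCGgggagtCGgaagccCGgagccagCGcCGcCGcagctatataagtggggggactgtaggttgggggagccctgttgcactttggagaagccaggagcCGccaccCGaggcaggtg
Bnc2: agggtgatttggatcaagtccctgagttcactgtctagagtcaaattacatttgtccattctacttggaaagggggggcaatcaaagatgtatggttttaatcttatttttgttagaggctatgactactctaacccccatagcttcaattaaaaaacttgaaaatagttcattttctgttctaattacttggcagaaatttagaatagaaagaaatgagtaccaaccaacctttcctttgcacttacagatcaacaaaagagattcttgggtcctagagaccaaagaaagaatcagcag
Foxo1: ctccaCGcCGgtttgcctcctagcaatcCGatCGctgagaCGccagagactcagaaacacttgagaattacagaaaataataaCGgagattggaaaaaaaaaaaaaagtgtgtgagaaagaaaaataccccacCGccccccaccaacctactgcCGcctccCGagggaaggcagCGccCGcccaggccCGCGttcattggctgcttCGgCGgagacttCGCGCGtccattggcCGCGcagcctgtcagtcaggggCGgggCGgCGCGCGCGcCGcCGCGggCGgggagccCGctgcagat

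The Egr4 window held 30 CpG dinucleotides at 67.7% GC, the Foxo1 window 31 at 61.3% GC, and the Bnc2 window 0 at 36.3% GC. Over all 32851 promoter windows the median was 7 CpG dinucleotides at 52.7% GC, and 5.43% of the windows held no CpG. The window of Gfra1, which was not detected on any array, held 12 CpG dinucleotides at 54.0% GC. Motifs were searched on both strands of these 4 windows. The forkhead core GTAAACA (in 3.65% of all promoters), the EGR core GCGNGGGCG (5.55%), the cyclic AMP response element TGACGTCA (1.79%) and TATAAA (13.6%) had no match in any of them. The GC box GGGCGG (35.7% of all promoters) matched 5 times in Foxo1, a pair of these overlapping, and CCAAT (37.4%) matched 3 times in Foxo1 and 1 time in Gfra1. Only these exact letters were searched, with N as any base, so a variant of a motif was not counted. A match describes letters in these windows and says nothing of binding.

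Values below are normalized log2 intensities, and a probe counted as detected where the detection p-value deposited for it was below 0.01. The sorted fractions carried their labels. Pou5f1 averaged 11.05 in E11.5, 10.67 in E13.5 and 10.42 in E15.5 germ cells and 4.89, not detected, in non-germ cells. Of 10 germ cell markers on the array, 9 or 10 were detected on each germ cell array, and 3 and 4 on the non-germ arrays. E15.5 replicate 2 stood apart from its group. Its correlation across genes was 0.916 and 0.932 with E15.5 replicates 1 and 3, which correlated at 0.968 with each other, and 0.857 and 0.862 with the non-germ arrays. The mean log2 level of 16 interstitial markers was 6.62, 9.48 and 6.61 on E15.5 replicates 1, 2 and 3, against 10.19 and 10.22 on the non-germ arrays, with 7, 14 and 8 of the 16 detected on those E15.5 arrays and 14 on each non-germ array. For 15 Sertoli cell markers it was 6.05, 7.73 and 6.61 against 7.83 and 8.28, and for 7 fetal Leydig cell markers 6.03, 8.76 and 5.85 against 6.73 and 7.95. The part of these transcripts in any E15.5 result was not tested. For single probes, values without that array are given where leaving it out ended a call or moved a called difference by more than 1.5 times. They are also given beside list medians that moved as much, and beside some other E15.5 results.

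Of the 11 probes, 8 from 4 genes were detected on at least 2 arrays and tested. The other 3 probes, which include the only probes of Gfra1 and Zbtb16, were detected on none. The plot of every probe on every array shows these courses.

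**Figure D1:**
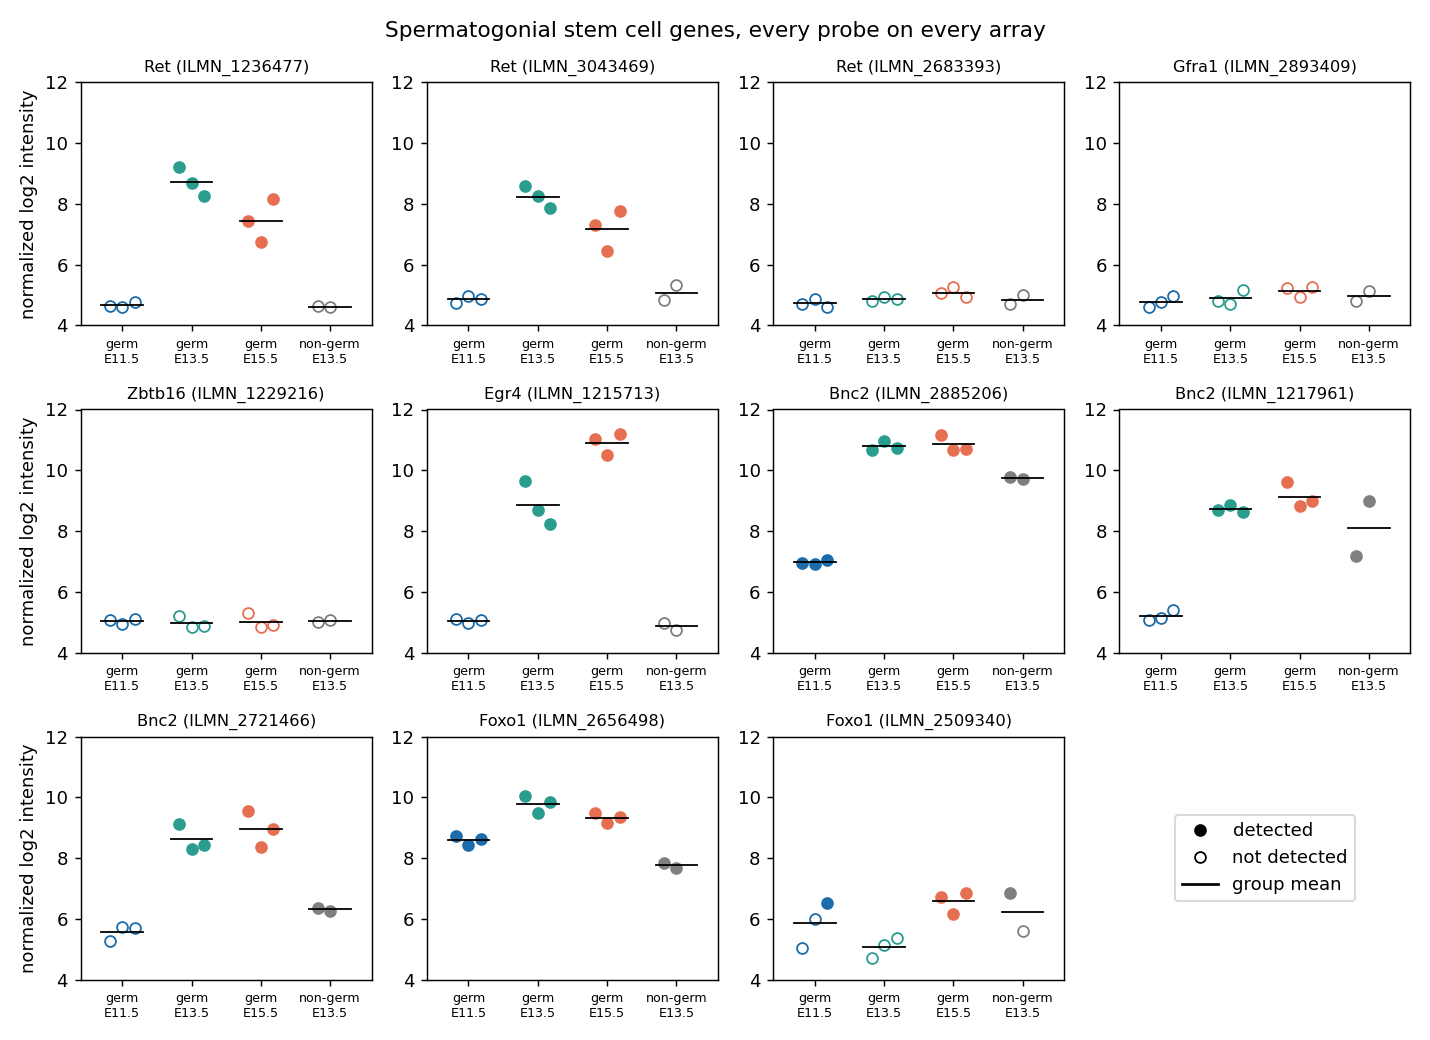
Normalized log2 intensity (vertical axis) of all 11 probes of the 6 genes on each of the 11 arrays, grouped as germ cells of E11.5, E13.5 and E15.5 and non-germ cells of E13.5. Filled circles are detected values, open circles are not, and bars are group means. Ret and Egr4 were detected in E13.5 and E15.5 germ cells only, and the probes of Gfra1 and Zbtb16 stayed between 4.59 and 5.29 on all arrays.

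Ret, the GDNF receptor, was high in male germ cells at E13.5 and E15.5 and not detected elsewhere. Its probe ILMN_1236477 measured 4.64, 4.60 and 4.78 on E11.5 arrays, none detected, then 9.21, 8.69 and 8.27 on E13.5 arrays and 7.44, 6.74 and 8.15 on E15.5 arrays. In non-germ cells it measured 4.63 and 4.60, not detected. The 3 stages did not overlap, and the lowest E15.5 value was on replicate 2. The probe was at least 6.09-fold higher at E13.5 (8.72 ± 0.47, SD, n = 3) than at E11.5 (4.67 ± 0.097, n = 3), with limma's adjusted p = 2.71e-05. It was at least 7.49-fold higher in E13.5 germ cells than in non-germ cells (4.62 ± 0.027, n = 2, limma adjusted p = 7.95e-06).

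Between E13.5 and E15.5 the Ret probe fell by 1.28 ± 0.32 (SE) on the log2 scale, with limma's adjusted p = 0.00953. Without E15.5 replicate 2 the difference was -0.94 (limma adjusted p = 0.0208). It remained at least 2.51-fold higher at E15.5 than at E11.5 (limma adjusted p = 5.12e-05). A second probe of the same RefSeq transcript, ILMN_3043469, measured 4.75, 4.98 and 4.88 on E11.5 arrays, 8.57, 8.26 and 7.87 on E13.5 arrays, 7.31, 6.45 and 7.76 on E15.5 arrays, and 4.83 and 5.32 in non-germ cells. It had the same order of stages, was at least 4.35-fold higher at E13.5 than at E11.5 (limma adjusted p = 5.93e-05) and at least 5.34-fold higher than in non-germ cells (3.02e-05). Its fall to E15.5, of 1.06 ± 0.31, passed the test in limma with all arrays (adjusted p = 0.0186). It measured -0.71 without E15.5 replicate 2 (limma adjusted p = 0.04), -0.89 without E13.5 replicate 1 (0.071) and -1.04 without E13.5 replicate 2 (0.0529). The third Ret probe, ILMN_2683393, is annotated to another RefSeq transcript of the gene. It lay between 4.61 and 5.25 on all arrays and was detected on none, with a lowest detection p-value of 0.185.

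Gfra1, the co-receptor through which RET binds GDNF, had 1 probe and was detected on none of the 11 arrays. Its values averaged 4.77 ± 0.18, 4.89 ± 0.25 and 5.14 ± 0.19 in E11.5, E13.5 and E15.5 germ cells (SD, n = 3 each) and 4.96 ± 0.23 in non-germ cells (n = 2). The lowest detection p-value was 0.197. Zbtb16 also had 1 probe and was detected on none, with means of 5.04 ± 0.09, 4.98 ± 0.21, 5.02 ± 0.24 and 5.03 ± 0.047 in the same groups and a lowest detection p-value of 0.287. Values not well above background give only an upper bound on a level, and neither gene was tested.

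Egr4 was not detected at E11.5, was high at E13.5 and was higher again at E15.5. Its only probe, ILMN_1215713, measured 5.10, 4.98 and 5.08 on E11.5 arrays, 9.64, 8.69 and 8.25 on E13.5 arrays, 11.01, 10.49 and 11.19 on E15.5 arrays, and 4.98 and 4.74 in non-germ cells. The groups did not overlap, apart from the E11.5 and non-germ arrays, on none of which it was detected. At E13.5 (8.86 ± 0.72) it was at least 8.22-fold higher than in non-germ cells (4.86 ± 0.17, limma adjusted p = 7.59e-06), and at least 6.69-fold higher than at E11.5 (5.05 ± 0.061, 3.2e-05). At E15.5 (10.90 ± 0.36) it was 4.11-fold higher than at E13.5, a log2 difference of 2.04 ± 0.31 (limma adjusted p = 0.000504). The bound on its rise between E11.5 and E15.5 was at least 27.5-fold (limma adjusted p = 3.83e-07). Without E15.5 replicate 2, which had the lowest of the 3 values, the E15.5 against E13.5 difference was 2.26.

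Bnc2 was present at E11.5, rose by E13.5 and had no further change that passed the test, and it was also detected in non-germ cells. The probe with the highest mean, ILMN_2885206, measured 6.96, 6.92 and 7.05 on E11.5 arrays, 10.68, 10.97 and 10.73 on E13.5 arrays, 11.17, 10.68 and 10.71 on E15.5 arrays, and 9.78 and 9.70 in non-germ cells, and was detected on all 11 arrays. E11.5 lay below every other array, and E13.5 and E15.5 overlapped. The rise to E13.5 (10.79 ± 0.16, against 6.98 ± 0.067 at E11.5) was 3.82 ± 0.17 on the log2 scale, and at E15.5 (10.85 ± 0.28) the probe was above E11.5 by 3.87 ± 0.17 (limma adjusted p = 1.75e-07). From E13.5 to E15.5 the difference was 0.06 with a 95% interval of -0.32 to 0.44 (limma adjusted p = 0.821). It was -0.10 without E15.5 replicate 1 and -0.27 with median scaling, so its direction was not settled. In E13.5 germ cells the probe was higher than in non-germ cells (9.74 ± 0.057) by 1.06 ± 0.19 (limma adjusted p = 0.000897).

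The other Bnc2 probes gave the same rise and different contrasts with non-germ cells. ILMN_2721466 measured 5.28, 5.75 and 5.70 on E11.5 arrays, not detected, 9.14, 8.31 and 8.43 on E13.5 arrays, 9.54, 8.36 and 8.96 on E15.5 arrays, and 6.37 and 6.28 in non-germ cells. It was at least 5.69-fold higher at E13.5 than at E11.5 (limma adjusted p = 9.65e-05) and higher than in non-germ cells by 2.30 ± 0.34 (0.000207). ILMN_1217961 measured 5.06, 5.13 and 5.41 on E11.5 arrays, not detected, 8.69, 8.84 and 8.62 on E13.5 arrays, 9.62, 8.81 and 8.98 on E15.5 arrays, and 7.17 and 9.005 in non-germ cells. It was at least 6.06-fold higher at E13.5 than at E11.5 (limma adjusted p = 0.000179). Its E13.5 values lay between those of the 2 non-germ arrays, and the difference of 0.63 ± 0.43 did not pass (limma adjusted p = 0.241). That difference was -0.29 without non-germ replicate 1 and 1.56 without non-germ replicate 2 (limma adjusted p = 0.00393), so it rested on single arrays. Neither of these probes changed detectably from E13.5 to E15.5, with 95% intervals of -0.34 to 1.00 for ILMN_2721466 and -0.43 to 1.26 for ILMN_1217961.

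Foxo1 was detected in every group, and the mean of its brighter probe was highest in E13.5 germ cells. That probe, ILMN_2656498, measured 8.73, 8.45 and 8.62 on E11.5 arrays, 10.03, 9.47 and 9.86 on E13.5 arrays, 9.50, 9.15 and 9.36 on E15.5 arrays, and 7.86 and 7.68 in non-germ cells. Every germ cell array lay above both non-germ arrays, and E13.5 lay above E11.5. It was higher at E13.5 (9.79 ± 0.29) than at E11.5 (8.60 ± 0.14) by 1.19 ± 0.18, or 2.28-fold (limma adjusted p = 0.00151), and higher than in non-germ cells (7.77 ± 0.12) by 2.02 ± 0.21 (2.04e-05). The E15.5 level (9.34 ± 0.17) was above that of E11.5 by 0.74 ± 0.18 (limma adjusted p = 0.00684). The E15.5 against E13.5 difference of -0.45 ± 0.18 did not pass (limma adjusted p = 0.0751), though it did under 5 other settings given in the closing section.

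The second Foxo1 probe, ILMN_2509340, is annotated to the same RefSeq transcript and did not follow the first. It was dim, measuring 5.06, 5.99 and 6.54 on E11.5 arrays, 4.72, 5.15 and 5.38 on E13.5 arrays, 6.73, 6.17 and 6.86 on E15.5 arrays, and 6.87 and 5.62 in non-germ cells. Only 5 of these 11 values counted as detected, all 3 at E15.5, E11.5 replicate 3 and non-germ replicate 1. At E15.5 it was at least 1.34-fold higher than at E13.5 (limma adjusted p = 0.013), a call that ended without E13.5 replicate 1 (0.050, just over the threshold). At E13.5, where it was detected on no array, it was at least 1.05-fold lower than in non-germ cells, where 1 of 2 arrays detected it (limma adjusted p = 0.0496), and this call was lost in 10 of 19 alternative settings. The E13.5 against E11.5 difference did not pass (limma adjusted p = 0.234). With values not above background included, the fitted differences of the Foxo1 probes had opposite signs in 3 of the 4 comparisons, and in the fourth, E15.5 against E11.5, they measured 0.74 and 0.72.

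**Figure D2:**
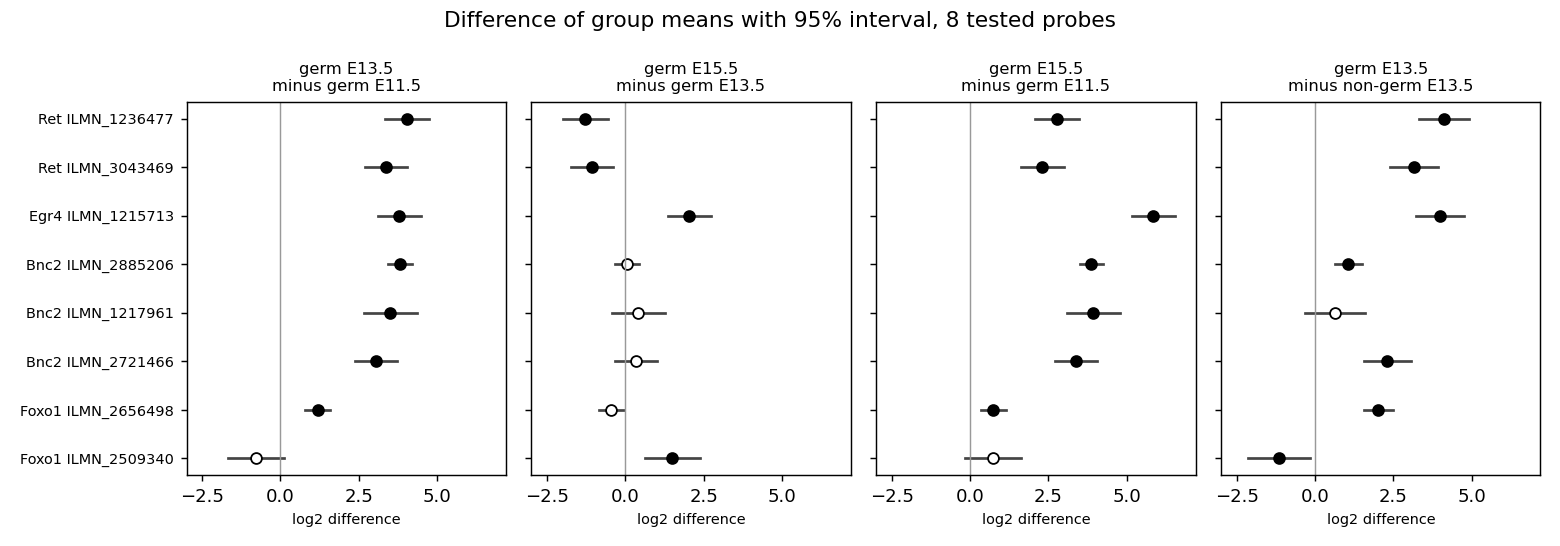
Difference of group means on the log2 scale (horizontal axis) with its 95% interval for the 8 tested probes in each of the 4 comparisons. Filled circles passed limma's test at an adjusted p below 0.05 over all probes, and open circles did not. Ret lies left of 0 and Egr4 right of 0 in E15.5 minus E13.5, while the 3 Bnc2 intervals there include 0.

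Counted over the 8 tested probes, 7 were called higher and 0 lower at E13.5 than at E11.5, where 8.55% of all 21943 tested probes were called higher and 6.74% lower (15.3% in either direction). At E15.5 against E13.5 there were 2 higher and 2 lower (17.5% and 20.8% of all probes, 38.3% in either direction), and at E15.5 against E11.5 there were 7 higher and 0 lower (21.6% and 24.6%, 46.2% in either). In E13.5 germ cells against non-germ cells 6 were higher and 1 lower (29.4% and 23.7%, 53% in either). All 8 changed over the 3 stages in the moderated F test, which called 50.7% of all probes. With 1 array left out, 7 or 8 member probes were called in that test. The median log2 difference of the 8 probes was 3.44, 0.19, 3.08 and 2.16 in these 4 comparisons, and that of all tested probes -0.0016, -0.043, -0.037 and 0.16. Several of these probes entered the test only through the groups in which they were high, so these counts support nothing further. Any pair of the stage comparisons shares 1 group of arrays, and the comparison with non-germ cells shares the E13.5 germ cell arrays with those stage comparisons that use them. In sorted bulk RNA, fewer cells with a transcript and less of it per cell cannot be told apart.

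The size of these differences depended on the background correction. Without it, the E13.5 against E11.5 difference of Ret (ILMN_1236477) was 1.64, that of Egr4 1.54, that of Bnc2 (ILMN_2885206) 2.50 and that of Foxo1 (ILMN_2656498) 0.86, each still called. Ret and Egr4 were not detected at E11.5 or in non-germ cells, so their differences from those groups here are fitted values against background and not bounds. Against non-germ cells the 4 probes differed by 1.69, 1.62, 0.89 and 1.32 without the correction, again each called. For E15.5 against E13.5, Ret measured -0.68 and Egr4 1.61, both called.

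Along the pathway of RET, most ligands and co-receptors were not above background. Gdnf, the ligand, and its relatives Nrtn and Pspn were detected on no array, and neither were the co-receptors Gfra2, Gfra4 and Gfral. Artn, the ligand that pairs with GFRA3, was detected on the 2 non-germ arrays only, at 6.13 and 6.02. Gfra3 measured 6.55, 6.11 and 6.10 on E15.5 arrays and 6.24 and 6.28 in non-germ cells, and was not detected at E11.5 or E13.5. Its rise of at least 1.06-fold from E13.5 to E15.5 passed (limma adjusted p = 0.00904, and 0.0108 without E15.5 replicate 2). Ncam1, an alternative GDNF receptor that needs no RET, was not detected in E13.5 germ cells (5.08 ± 0.32) and measured 9.82 and 9.36 in non-germ cells, so that it was at least 10.8-fold lower in the germ cells (limma adjusted p = 5.89e-05). Among germ cell arrays it was detected on E15.5 replicate 2 only, at 7.004. Of the 3 measured genes of this list, 0 were called higher and 0 lower at E13.5 against E11.5, 1 and 0 at E15.5 against E13.5, 0 and 0 at E15.5 against E11.5, and 0 and 2 in E13.5 germ against non-germ cells. Over the 11598 genes, each by its probe with the highest mean, 9.98% were higher and 7.29% lower in the first of these, 20.7% and 20.7% in the second, 25.4% and 23.7% in the third and 30.2% and 26.0% in the fourth. The last list count was 1 lower without either non-germ array, and 1 gene was higher at E15.5 than at E11.5 without E11.5 replicate 1 or E13.5 replicate 2 or 3. Artn, Gfra3 and Ncam1 entered the test only through non-germ or E15.5 arrays on which they were detected, so these list counts support nothing further.

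Of 21 measured RET signal transducers, 3 were higher and 1 lower at E13.5 than at E11.5, 4 and 4 at E15.5 against E13.5, 8 and 4 at E15.5 against E11.5, and 1 and 10 in E13.5 germ cells against non-germ cells. The shares of all genes called higher and lower were 9.98% and 7.29%, 20.7% and 20.7%, 25.4% and 23.7%, and 30.2% and 26%. The list medians were -0.094, 0.083, 0.23 and -0.50, against 0.012, 0.015, 0.033 and 0.12 for all genes. Without E15.5 replicate 2 the third list median was 0.14. These counts moved with single arrays: the 10 lower than non-germ cells were 6 without either non-germ array, and the 1 higher was 2 without E11.5 replicate 3 or E15.5 replicate 2 or 3. The 3 higher at E13.5 than at E11.5 were 1 without any single array of those groups or non-germ replicate 1, the 1 lower was 2 or 3 without E15.5 replicate 1 or 2, and the 4 lower at E15.5 than at E13.5 were 2 without E13.5 replicate 1 or 3 or E15.5 replicate 1. The adaptor Grb10, an imprinted gene, averaged 8.96 in E13.5 germ cells against 10.94 at E11.5 (-1.98 ± 0.34, limma adjusted p = 0.00291), and 12.86 at E15.5 against 8.96 at E13.5 (3.90 ± 0.34). In E13.5 germ cells it differed from non-germ cells by -5.32 ± 0.39, and the rise to E15.5 was 3.59 without replicate 2. The adaptor Grb7 rose to 9.33 at E15.5, against 7.34 at E13.5, by 1.98 ± 0.23 (limma adjusted p = 8.34e-05). Sos1, the exchange factor that activates RAS, rose by 0.75 ± 0.15 to E13.5 and fell by 0.98 ± 0.15 to E15.5, and was higher in E13.5 germ than non-germ cells by 1.46 ± 0.17.

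Of 14 measured genes listed as responsive to GDNF or to growth factor signalling, 2 were higher and 3 lower at E13.5 than at E11.5, 4 and 5 at E15.5 against E13.5, 4 and 7 at E15.5 against E11.5, and 5 and 7 against non-germ cells. In these 4 comparisons 9.98% and 7.29%, 20.7% and 20.7%, 25.4% and 23.7%, and 30.2% and 26% of all genes were called higher and lower. Their medians were -0.33, -0.023, -0.73 and -0.60. Without E15.5 replicate 2 the second was -0.14, with 3 higher and 6 lower. The third was then -1.22, with 3 higher and 9 lower. At E13.5 against E11.5 the 2 higher were 1 without E11.5 replicate 1 or 3 or E13.5 replicate 1, and the 3 lower were 1 without any single E11.5 array or E13.5 replicate 3. The 4 higher at E15.5 than at E13.5 were 2 without E13.5 replicate 3, and the 7 lower than non-germ cells were 4 without non-germ replicate 2. Bcl6b, a stem cell repressor induced by GDNF, averaged 10.81 at E15.5 against 7.23 at E13.5 (3.57 ± 0.32, limma adjusted p = 1.86e-05). Etv5, another GDNF-induced stem cell factor, was lower at E15.5 than at E11.5 by a difference of -2.38 ± 0.21 (limma adjusted p = 7.51e-06). Lhx1, also induced by GDNF, was higher at E13.5 than at E11.5 by 1.28 ± 0.18, and at E15.5 it averaged 7.97 against 11.62 at E13.5 (-3.65 ± 0.18). The growth regulator Mycn fell as well, to 5.86 at E15.5, where 1 of 3 arrays detected it, against 8.63 at E13.5 (-2.77 ± 0.20).

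The EGR relatives of Egr4 were lower in E13.5 germ cells relative to the non-germ fraction, the reverse of Egr4, while the EGR co-repressors had its order of stages. Egr1, Egr2 and Egr3 are growth factor-induced paralogs, and NAB1 and NAB2 bind and repress EGR proteins such as EGR1 and EGR2. Whether they act on EGR4 was not tested. Egr1 averaged 11.42 ± 0.54, 10.33 ± 0.60 and 12.38 ± 0.88 in E11.5, E13.5 and E15.5 germ cells and 13.63 ± 0.20 in non-germ cells. Egr3 was not detected at E11.5 or E13.5, measured 7.06, 9.11 and 7.25 on E15.5 arrays and 10.25 and 9.62 in non-germ cells. In E13.5 germ cells Egr1 was lower than in non-germ cells by a difference of -3.30 ± 0.49 and Egr2 by -3.02 ± 0.56, and Egr3 was at least 13.6-fold lower. At E15.5 replicate 2 held the highest value of Egr1 (13.38), Egr2 (9.92) and Egr3 (9.11). Against E13.5 the E15.5 difference was 2.05 for Egr1 (limma adjusted p = 0.00386, and 1.56 with 0.00627 without that array) and 1.38 for Egr2 (0.0496, and 0.83 with 0.149 without it). The Egr2 call also ended without any single E13.5 germ cell array, E11.5 replicate 3, E15.5 replicate 1 or either non-germ array. It was lost as well without background correction (limma adjusted p = 0.0594), with median scaling (0.0783) and in the authors' deposited table (0.0675). Egr3 was at least 3.11-fold higher at E15.5 than at E13.5 with all arrays (limma adjusted p = 0.00115). Its fitted difference, taken against E13.5 values that were not above background, was 2.81 with all arrays and 2.14 without E15.5 replicate 2 (limma adjusted p = 0.000562).

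Nab1 was not detected at E11.5 and averaged 7.41 ± 0.53 at E13.5, 8.67 ± 0.24 at E15.5 and 7.23 ± 0.18 in non-germ cells. Nab2 was also not detected at E11.5 and averaged 7.38 ± 0.96 at E13.5, 9.99 ± 0.24 at E15.5 and 9.04 ± 0.087 in non-germ cells. Each passed limma's test in both intervals, with Nab1 at least 2.45-fold higher at E13.5 than at E11.5 (adjusted p = 0.000865) and Nab2 at least 2.40-fold (0.00284). From E13.5 to E15.5 Nab1 rose by 1.26 ± 0.26 and Nab2 by 2.61 ± 0.39. Unlike Egr4, neither was called higher in E13.5 germ cells than in non-germ cells. Nab2 was lower there by a difference of -1.66 (limma adjusted p = 0.00822), a call lost without non-germ replicate 2. Nab1 differed by 0.18, which did not pass (limma adjusted p = 0.631). Of these 5 genes 2 were higher and 0 lower at E13.5 against E11.5, 5 and 0 at E15.5 against E13.5, 3 and 0 at E15.5 against E11.5, and 0 and 4 in E13.5 germ against non-germ cells. Their medians were -0.16, 2.05, 2.65 and -3.02. The shares of all genes called higher and lower were 9.98% and 7.29%, 20.7% and 20.7%, 25.4% and 23.7%, and 30.2% and 26%. Without E15.5 replicate 2 the first 2 counts of the 5 genes were 2 and 2, with Egr1 and Egr2 then called lower, and 4 and 0.

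**Figure D3:**
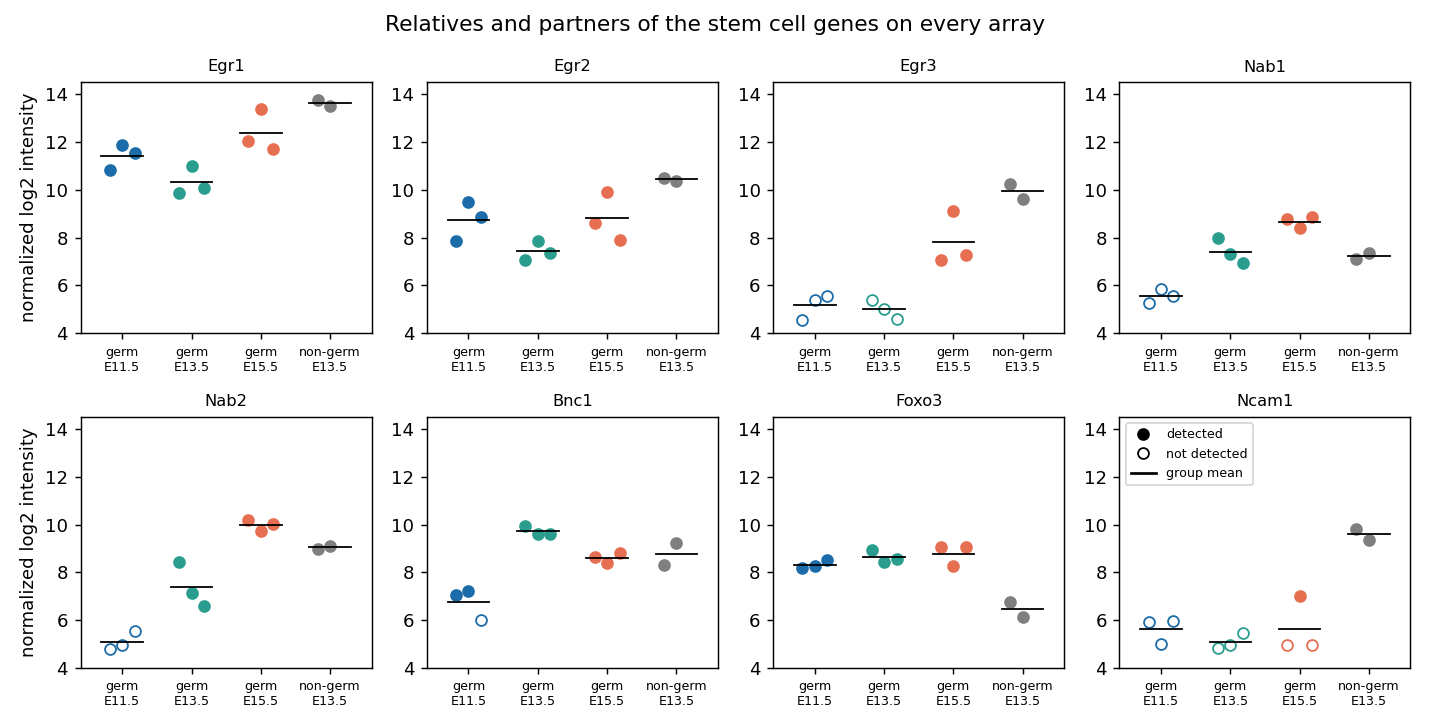
Normalized log2 intensity (vertical axis) on every array of 8 relatives and partners of the genes: Egr1, Egr2, Egr3, Nab1, Nab2, Bnc1, Foxo3 and Ncam1. Filled circles are detected values, open circles are not, and bars are group means. E15.5 replicate 2, the middle point of that group, is the highest for Egr1, Egr2, Egr3 and Ncam1, and the lowest for Nab1, Nab2, Bnc1 and Foxo3.

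Bnc1, the paralog of Bnc2, averaged 9.72 ± 0.17 at E13.5 against 6.75 ± 0.65 at E11.5, a rise of 2.97 ± 0.32 (limma adjusted p = 0.000178). Unlike any Bnc2 probe it was then called lower at E15.5 (8.60 ± 0.21), by a difference of -1.12 ± 0.32 (limma adjusted p = 0.0188), a call lost without E13.5 replicate 1. In E13.5 germ cells it was higher than in non-germ cells by 0.95 ± 0.36 (limma adjusted p = 0.0454), a call lost without any single E13.5 germ cell array, E11.5 replicate 1, E15.5 replicate 1 or 3, or non-germ replicate 1, and with cyclic loess scaling (0.137). The difference between the paralogs was not itself tested. Foxo3, the paralog of Foxo1 that holds resting oocytes in the mouse ovary, averaged 8.31 ± 0.19, 8.64 ± 0.28 and 8.78 ± 0.45 over the 3 stages and 6.45 ± 0.44 in non-germ cells. It was higher in E13.5 germ than non-germ cells by 2.19 ± 0.29 (limma adjusted p = 9.99e-05), and no stage difference passed with all arrays, while without E15.5 replicate 2 it was higher at E15.5 than at E11.5 by 0.74 (limma adjusted p = 0.0221). Foxo4 was detected on no array, and Foxo6 was near background, with group means of 5.80 to 6.15 in germ cells.

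Among 20 measured FOXO relatives, upstream kinases and known targets, 7 were higher and 5 lower at E13.5 than at E11.5, 8 and 4 at E15.5 against E13.5, 9 and 5 at E15.5 against E11.5, and 3 and 11 in E13.5 germ against non-germ cells. Their medians were 0.26, 0.28, 0.55 and -0.76, and without E15.5 replicate 2 the second was 0.18. The shares of all genes called higher and lower were 9.98% and 7.29%, 20.7% and 20.7%, 25.4% and 23.7%, and 30.2% and 26%. The 11 lower than non-germ cells were 7 without non-germ replicate 1, and the 4 lower at E15.5 than at E13.5 were 2 without E13.5 replicate 1 or E15.5 replicate 3. Igf1r, a receptor upstream of AKT, was not detected at E11.5 and was at least 3.12-fold higher at E13.5 (7.76 against 4.52, limma adjusted p = 3.83e-06), though lower than in non-germ cells by a difference of -2.75 ± 0.21. Bcl6, a FOXO target in other mouse and human cells, rose by 2.38 ± 0.42 to E13.5 and by 1.79 ± 0.42 to E15.5. At E11.5 Bcl6 averaged 5.30 and was detected on 1 of 3 arrays, so the first rise starts near background. Gadd45a, a stress gene that FOXO factors can induce, fell by 3.11 ± 0.26 to E13.5. Klf2, an endothelial and lymphocyte transcription factor gene listed as a FOXO target, fell by 1.81 ± 0.27 to E13.5 (limma adjusted p = 0.00132).

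Of 9 measured partners and targets of PLZF, 2 were higher and 2 lower at E13.5 than at E11.5, 1 and 1 at E15.5 against E13.5, 1 and 2 at E15.5 against E11.5, and 5 and 1 against non-germ cells. Their medians were -0.18, 0.097, -0.097 and 0.79, and without E15.5 replicate 2 the second was 0.22. The shares of all genes called higher and lower were 9.98% and 7.29%, 20.7% and 20.7%, 25.4% and 23.7%, and 30.2% and 26%. Most stage counts moved when single arrays were left out: the 2 higher at E13.5 were 1 without E11.5 replicate 1 or E13.5 replicate 1, the 2 lower there were 0 or 1 without any single array of those groups, and the 1 higher at E15.5 than at E13.5 was 0 without E13.5 replicate 2 or 3 or E15.5 replicate 3. At E15.5 against E11.5 there were 2 higher without E15.5 replicate 1 or 2, and 1 lower without E11.5 replicate 3 or E15.5 replicate 1 or 3. Sall4, a zinc finger factor that binds PLZF, averaged 14.02 in E13.5 germ cells against 5.56 in non-germ cells, where 1 of 2 arrays detected it. The fitted difference was 8.46 ± 0.25 (limma adjusted p = 3.24e-09). The deacetylase Hdac5 rose by 1.29 ± 0.22 to E13.5 (limma adjusted p = 0.00238).

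Most other genes listed for undifferentiated spermatogonia were higher in E13.5 germ cells relative to the non-germ fraction. The list includes Pou5f1, whose reporter was used for the sort, and germ cell markers such as Ddx4, Dazl and Sall4. Higher values of these go with sorting germ cells, so the count says little that is particular to stem cell genes. Of 34 measured genes of the list, 15 were higher and 1 lower at E13.5 than at E11.5, 7 and 8 at E15.5 against E13.5, 13 and 7 at E15.5 against E11.5, and 23 and 5 in E13.5 germ against non-germ cells. The medians were 0.54, 0.0042, 0.34 and 2.36, and without E15.5 replicate 2 the second was 0.091. The shares of all genes called higher and lower were 9.98% and 7.29%, 20.7% and 20.7%, 25.4% and 23.7%, and 30.2% and 26%. The 1 lower at E13.5 than at E11.5 was 2 without E11.5 replicate 2 or E15.5 replicate 2, and 3 without E15.5 replicate 3. The gene that fell to E13.5 was Nr6a1, an orphan nuclear receptor (-1.44 ± 0.22). In this list the largest rise to E13.5 was that of Nanos2, at least 38.4-fold from E11.5, where it was not detected (limma adjusted p = 3.06e-07). Next came the surface protein gene Tspan8, at least 3.13-fold higher at E13.5 than at E11.5 (limma adjusted p = 0.000628). Thy1 and Foxc2, both used as stem cell markers in the postnatal testis, were not detected in E13.5 germ cells and were at least 10.5-fold and 18.3-fold lower there than in non-germ cells (limma adjusted p = 3.35e-07 and 3.48e-05).

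Of 13 measured genes of differentiating spermatogonia, 3 were higher and 0 lower at E13.5 than at E11.5 (9.98% and 7.29% of all genes), and the other 10 did not pass. There were 7 higher and 3 lower at E15.5 against E13.5 (20.7% and 20.7% of all genes), 8 and 2 at E15.5 against E11.5 (25.4% and 23.7%), and 6 and 3 in E13.5 germ against non-germ cells (30.2% and 26.0%). Their medians were 0.33, 0.94, 1.82 and 0.80. Without E15.5 replicate 2, 12 genes were measured and the third median was 1.07, with 6 higher and 2 lower. Sohlh1, a helix-loop-helix factor of spermatogonia, rose by 5.59 ± 0.41 from E13.5 to E15.5 (limma adjusted p = 5.16e-06), while its partner Sohlh2 was at least 6.38-fold lower at E15.5, where it was not detected (1.92e-06). Kit, the receptor that marks differentiating spermatogonia, was lower at E15.5 than at E11.5 by a difference of -2.08 ± 0.29.

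Over the 11 arrays, the genes most like each detected gene were found by Pearson r of the probes with the highest mean, among 11594 genes. The arrays form groups, so a high r shows mainly a shared order of group means. Ret was most like Pmaip1 (r = 0.976), Ppif (0.970) and Ucma (0.969), and Egr4 was most like Taf7l (0.997), Garem2 (0.997) and Sycp2 (0.987). Bnc2 was most like Pou6f1 (0.987), Ldlrad3 (0.984) and Ccdc112 (0.979), and Foxo1 was most like Lgals8 (0.990), Rab6b (0.971) and Tex11 (0.967). Taf7l, a germ cell relative of a general transcription factor subunit, averaged 5.15, 9.18 and 11.19 over the 3 stages and 4.75 in non-germ cells. Among the 4 genes themselves r was highest between Ret and Foxo1 (0.906) and lowest between Bnc2 and Foxo1 (0.516).

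**Figure D4:**
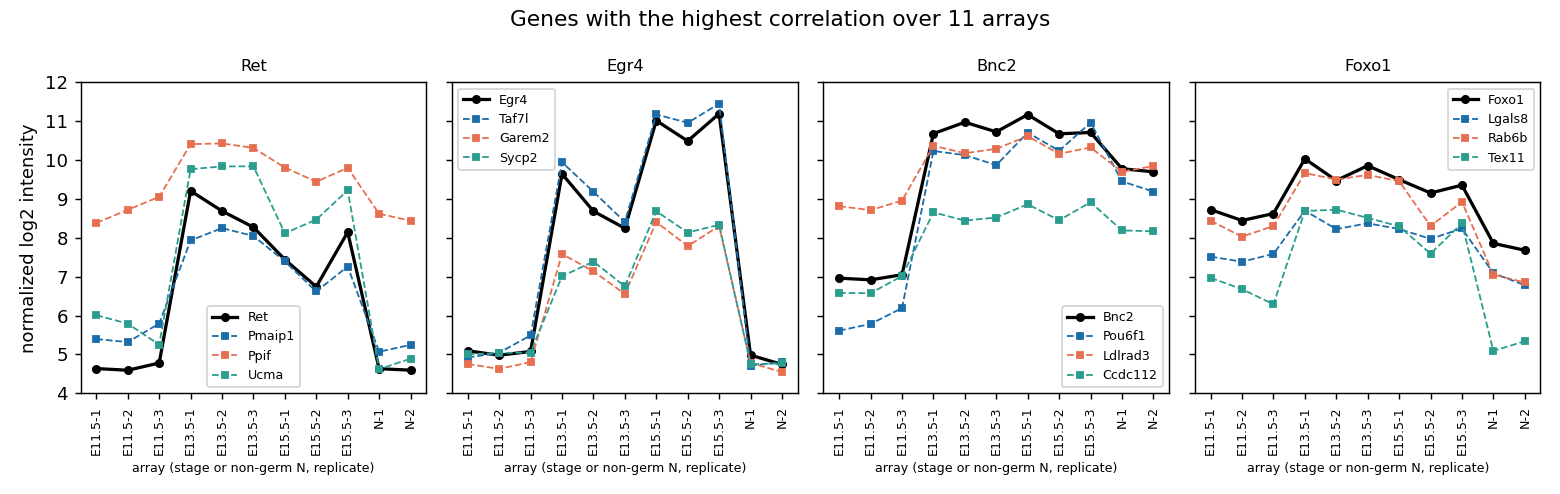
Normalized log2 intensity (vertical axis) on each of the 11 arrays (horizontal axis: E11.5, E13.5 and E15.5 germ cells and non-germ cells N, with the replicate number) of Ret, Egr4, Bnc2 and Foxo1 (black) and of the 3 genes with the highest Pearson r to each (coloured). Egr4 and Taf7l had the same order of group means, at r = 0.997.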

How the data were processed

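Per the labels' protocols, RNA of the sorted cells was isolated with the PicoPure kit, amplified with the NuGEN Ovation system, biotin-labelled and hybridised to Illumina BeadChips. Per the file headers, the deposited non-normalized table gives for each probe and array a signal intensity on a linear scale and a detection p-value. The scanner software and genome build are not given in the sources used here. The authors also deposited rescaled intensity values, linear in each array's signals (r = 1 on every array) and made by a method not stated, which served as an alternative.

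In R 4.3.3 with limma 3.58.1, the background was corrected by neqc using the deposited detection p-values, with an offset of 16, followed by quantile scaling over 11 arrays and conversion to log2. Median signals ran from 230.06 to 315.07, and 14860 to 18657 probes were detected per array (detection p below 0.01). The number of arrays limits the precision. A probe detected on at least 2 of 11 arrays was kept, which held for 21943 of 45281. The annotation names 34885 probes by 1 symbol and 18 by several, with 10378 probes not listed, and 99.8% of named probes matched RefSeq by Entrez number. A single linear model of 4 group means had 7 residual and, after eBayes, 3.97 prior degrees of freedom. Tests are two-sided, adjusted by Benjamini-Hochberg over all kept probes, and called below 0.05. P-values measure the spread between these arrays only. SDs are between arrays of a group, and ± after a difference is the SE of the fit. For a probe undetected on all arrays of 1 group, the fold is a bound ("at least"), set on each such array by its lowest detected level or by the probe's own value if higher. The limma calls of E13.5 against E11.5 were tried on simulated normalized values with known differences. Background correction, the detection rule and the fold bounds were not part of that trial.

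The 6 genes and all lists were chosen with earlier results of these data known. A gene on a list was represented by its kept probe with the highest mean. Some of these probes were kept only through groups in which they were high, so the list counts are descriptive. Named are all members and probes, all GDNF family ligands and co-receptors, EGR, FOXO and basonuclin relatives, and from each other list and comparison at most 2 of the largest rises and falls past the threshold. The 3 genes most like a member were named by Pearson r. Replicate numbers are shared by the groups, but deviations of same-numbered arrays from their group means correlated at only -0.10 to 0.11, so the numbers were not taken as pairs. Alternatives were other background and scaling choices, the authors' table, detection filters, 1 probe per gene, array weights, a fit of 2 groups, a replicate block and leaving out each array.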

Additional observations from a re-analysis of the deposited data

How the results depend on the processing

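The calls of Ret (ILMN_1236477) and Egr4 held in all 4 comparisons and those of Bnc2 (ILMN_2885206) in 3 under every alternative run, at sizes that shrank without background correction or in the authors' table. With 1 probe per gene the counts of called members were 4, 2, 4 and 4 of 4 genes for E11.5 to E13.5, E13.5 to E15.5, E11.5 to E15.5 and germ against non-germ cells, and 4 in the test over stages, since fewer probes were tested. The counts over all features were then 2178, 4934, 5783 and 6610, against 3357, 8414, 10145 and 11637 probes. Leaving out 1 array at a time gave 2174 to 4471 probes for E13.5 against E11.5, the lowest without E13.5 replicate 1, and 2 to 4 called member probes for E15.5 against E13.5, 2 without that same array. The reversed values were those of Bnc2 ILMN_2885206 at E15.5 against E13.5 (-0.27 with median scaling, and -0.10 to 0.15 with 1 array left out, lowest without E15.5 replicate 1, against 0.06) and of Bnc2 ILMN_1217961 in germ against non-germ cells (-0.29 without non-germ replicate 1 and 1.56 without the other, against 0.63). Foxo1 ILMN_2656498 became called lower at E15.5 than at E13.5 without background correction (-0.35), with median scaling (-0.77), in the authors' table (-0.37), with the replicate block (adjusted p = 0.0473) and without E13.5 replicate 2 (-0.61), and its E15.5 against E11.5 call ended with median scaling (0.52, adjusted p = 0.0685). Ret ILMN_3043469 lost its E15.5 against E13.5 call with array weights too (adjusted p = 0.0644). The causes were not tested. The replicate block gave 7, 5, 7 and 7 called member probes and 8 over stages, against 7, 4, 7, 7 and 8, and 3050, 8057, 9909 and 11087 probes in all, and changed no other call of a member. Cyclic loess moved the share of higher among called probes to 57.5% for E15.5 against E13.5 (45.7% with quantiles) and to 41.8% for germ against non-germ cells (55.3%), with shifts of all probes' median of 0.12 and -0.22. It turned no called member. A slide block was not run because the headers give no slides. Signal near background limits Gfra1, Zbtb16, the third Ret probe and the second Foxo1 probe.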
